A study of Homo sapiens with 4 samples.

Results

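The genes described here are the antisense RNAs that carried reads in the human neuroblastoma line SH-SY5Y. They are the genes whose symbol ends in -AS1, -AS2 or -AS3 and whose counts summed to at least 40 over 4 RNA sequencing libraries. Of 28058 counted genes, 1125 bore such a symbol, and 209 reached that total. Another 376 had between 1 and 39 counts and 540 had none. The members were chosen by counts summed without regard to group, so their levels are a description. The list was also set with earlier results of these data known, so the comparison of treated with control cells is not independent of those results. Each antisense RNA was set beside the gene named before the hyphen, its sense partner. A partner of that name was counted for 205 members, and these were 202 distinct genes, because DLGAP1, GAS6 and PAXIP1 each have a pair of antisense members. RPARP-AS1, HOXD-AS2, HOXA-AS2 and HOXB-AS1 had no such gene in the table.

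The study compared 2 libraries of untreated SH-SY5Y cells with 2 libraries after shock wave treatment (SWT), a burst of acoustic pressure pulses. Per the labels, SWT was 300 impulses of 0.08 mJ/mm2 at 3 Hz, given 7 cm from the applicator in a 37 °C water bath, and RNA was taken after 6 h. The series' design text instead names exosomes released by such treatment, and which of these was applied is unsettled here. Both groups are the same unmodified line, and no label places the replicates in separate cultures. A p-value therefore reflects the spread among these 4 libraries alone, and that spread could be technical.

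Many human genes have a second transcript made from the opposite DNA strand. Such natural antisense RNAs are mostly long non-coding RNAs, and they arise either from a promoter shared head to head with the sense gene or from a start inside or beyond it. Some act on their partner, for example through chromatin or by pairing with its mRNA, others act elsewhere as hosts of small nucleolar RNAs or as binding partners of microRNAs, and many are quickly degraded in the nucleus. A symbol ending in -AS states position, not function.

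The libraries held 9888263 to 11686808 counts, and the kit kept strand, while the strand setting used in counting is not given in the sources used here. Markers of the mesenchymal state of neuroblastoma were abundant, at 11716 to 13232 CPM (a gene's counts scaled to library size) summed over 10 genes, 8 of them at 10 CPM or more in every library. Markers of the noradrenergic state, the usual state of SH-SY5Y, summed to 75.5 to 84.3 CPM over 14 genes, and PHOX2A, TH, DBH, CHGA and MYCN were at 0 in all libraries. The labelled line was thus without its defining noradrenergic markers. The 19 heart muscle genes summed to 191 CPM in control 1, 619 in control 2, 322 in SWT 1 and 295 in SWT 2, so control 2 stood apart. Glial, endothelial and leukocyte lists summed to at most 4.25, 4.35 and 48.8 CPM.

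Together the 209 antisense RNAs held 1970 and 1947 CPM in the control libraries and 1924 and 1900 CPM in the SWT libraries. A single RNA, LRRC75A-AS1, took 32.4% of their counts and the 5 most abundant took 46.0%. The median member had 136 counts over the 4 libraries, or 3.15 CPM, and 175 members were at 1 CPM or more in every library. In total, 10 members reached 1000 counts, 129 reached 100 and 80 stayed under 100. Just inside the threshold lay ST20-AS1 with 41 counts, NAPA-AS1 with 41 and NDUFB2-AS1 with 42. Just outside it lay RASAL2-AS1, PITRM1-AS1 and MYLK-AS1 with 39 each. No member was at least 2-fold higher in 1 library than in every other.

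LRRC75A-AS1 (chr17:16438822-16478678, plus strand, GRCh38) is also known as a host gene of small nucleolar RNAs, which are cut from its introns. It had 7567 and 6186 counts in control 1 and 2, and 6251 and 7101 in SWT 1 and 2. In CPM these were 652, 626, 621 and 610 in the order control 1, control 2, SWT 1 and SWT 2. Both SWT libraries lay under both controls, by a log2 fold change of -0.055 ± 0.050 (SE). The partner LRRC75A had only 15, 19, 28 and 28 counts in the same order, and a log2 fold change of 0.70 ± 0.32 (SE) that did not pass the test and was 0.42 without control 1. Per kilobase of exon, the antisense RNA stood 296-fold above it over the pooled libraries (95% exact interval 241 to 368, counting error only).

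FGD5-AS1 (chr3:14920347-14948424, minus strand) was the second most abundant, at 126, 122, 128 and 130 CPM in control 1, control 2, SWT 1 and SWT 2. The values spread by 3.40 CPM (SD, n = 4) around 126 CPM. Its partner FGD5, a guanine nucleotide exchange factor of endothelial cells, had 2 counts, both in control 2. The ratio per kilobase was therefore poorly fixed, at 4308 with an interval from 1192 to 35578.

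OIP5-AS1 (chr15:41283990-41309737, plus strand), also called Cyrano, is known for a long site that pairs with the microRNA miR-7. It had 638, 528, 510 and 581 counts, or 55.0, 53.4, 50.6 and 49.9 CPM, in the library order above. OIP5, a centromere protein, had 154, 137, 161 and 159 counts, and per kilobase OIP5-AS1 lay below it at a log2 ratio of -1.48 ± 0.16 (SD, n = 4). The site is shown because it sets this RNA apart in sequence from the other members. In the microRNA the capitals mark the seed, bases 2 to 8. In the site, read from the GENCODE transcript of 8829 bases at position 2887, they mark the seed match and the run that pairs beyond the seed.
hsa-miR-7-5p: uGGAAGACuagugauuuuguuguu
OIP5-AS1 site: agAACAACAAAATCACcaatGTCTTCCa
The run beyond the seed was 14 bases long. The same seed match, GTCTTCC, occurred in the longest transcript of 37 of 205 members (18.0%), OIP5-AS1 holding it 3 times, and beside no match in another member was the paired run longer than 5 bases. A match is a description of letters and was not tested as a site.

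The next most abundant members differed in how they stood to their partners. MAGI2-AS3 (chr7:79452877-79471208) had 518, 427, 455 and 492 counts against 64, 55, 52 and 48 for MAGI2, a synaptic scaffold protein. LOXL1-AS1 (chr15:73908071-73928248) had 442, 400, 409 and 465 counts. LOXL1, which crosslinks elastin, had 1699, 1254, 1319 and 1668. The first thus lay above its partner per kilobase, at a log2 ratio of 4.54 ± 0.18 (SD, n = 4), and the second below it, at -1.99 ± 0.14. AGAP2-AS1 (chr12:57726271-57728356) had 353, 287, 254 and 358 counts while AGAP2 had 16, 5, 2 and 9, a ratio of 175-fold per kilobase (interval 124 to 258). Exons of AGAP2 lie opposite 57.7% of the exon bases of this antisense RNA.

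The other 4 of the 10 most abundant members stood between 23.1 and 27.4 CPM on average. PSMA3-AS1 was at 27.4 ± 1.76 CPM (SD, n = 4) and its partner, a proteasome subunit, at 158 ± 15.0 CPM. THAP9-AS1 was at 26.3 ± 1.59 CPM against 2.78 ± 0.31 CPM for THAP9, a gene derived from a transposase. WAC-AS1 was at 25.5 ± 1.41 CPM and CTBP1-AS2 at 23.1 ± 0.92 CPM. WAC, an adaptor in histone ubiquitination, and CTBP1, a transcriptional corepressor, were at 173 ± 4.34 and 130 ± 5.79 CPM. As neighbours in this order the first 3 overlapped in their library values, while CTBP1-AS2, at 21.8 to 23.9 CPM, lay just under WAC-AS1, at 24.1 to 26.9 CPM.

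**Figure D1:**
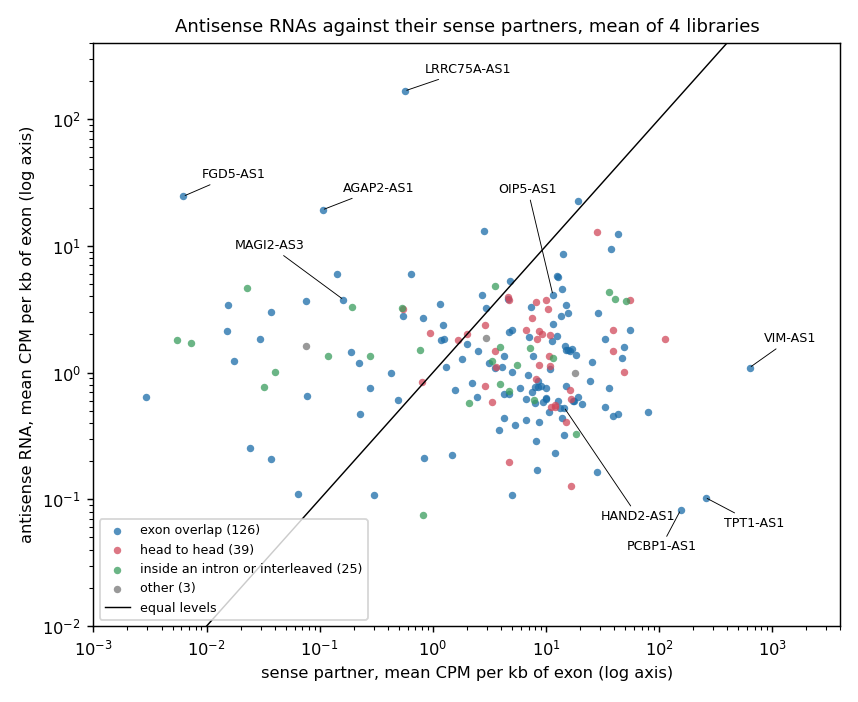
Mean level of each antisense RNA against its sense partner over the 4 libraries, in CPM per kilobase of exon on log axes, for the 193 compared pairs whose partner had a count. Colours give the arrangement of the pair, the line marks equal levels, and most points lie under it, with LRRC75A-AS1, FGD5-AS1 and AGAP2-AS1 far above and TPT1-AS1, PCBP1-AS1 and VIM-AS1 far below.

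Both genes of a pair had a gene model in GENCODE 29 for 200 pairs, and every partner among them was protein-coding. The antisense RNA lay below its partner per kilobase of exon in every library in 141 of these pairs, and above it in every library in 53. In 6 pairs the side differed between libraries. The median log2 ratio of antisense to sense was -2.08, so that the sense gene stood 4.23-fold higher, and the quartiles were -3.84 and 0.46. Library medians were -2.20, -2.08, -2.07 and -2.11 in control 1, control 2, SWT 1 and SWT 2. Within a pair the ratio varied little, with a median SD of 0.30 over the libraries, against a range between pairs from -11.28 to 11.49. The sense gene was at least 10-fold higher in 68 pairs and the antisense RNA in 29. The ratio depends on exon lengths, since without them its median was -3.16.

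The pairs with the lowest ratios had highly expressed sense genes. TPT1-AS1 (chr13:45341345-45393413) had 14, 9, 15 and 8 counts beside 22148, 18811, 18452 and 21355 for TPT1, a tumour protein under translational control. It gave 0.0569% of the counts of the pair (95% exact interval 0.0417% to 0.0759%). PCBP1-AS1 (chr2:69962263-70103220) had 22, 14, 9 and 26 counts, and PCBP1, an RNA-binding protein, stood 1842-fold above it per kilobase. VIM-AS1 (chr10:17214239-17229985) had 24, 18, 28 and 24 counts beside 36439, 32510, 32537 and 39130 for VIM, the intermediate filament vimentin. SLC16A1-AS1 lay 171-fold below SLC16A1, a lactate transporter. All 4 have exons opposite exons of the partner, and the part of the counting's strand setting in these low values was not tested.

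At the other end were partners with no reads. DLGAP1, a postsynaptic scaffold protein, had 0 counts in all libraries, while DLGAP1-AS1 (chr18:3593732-3598352) had 72, 87, 70 and 88. With 3 counts over the 4 libraries taken as the limit of a count of 0, DLGAP1-AS1 stood at least 608-fold higher per kilobase. The partners of 7 members were at 0, and the lower bounds of their ratios ran from 4.93-fold to 608-fold. Among them, named after its values were seen, was CDKN2B-AS1 (chr9:21994778-22121097), also called ANRIL, with 54, 64, 43 and 55 counts beside none for the cell cycle inhibitor CDKN2B. The partners of 31 members had fewer than 40 counts.

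HAND2-AS1 (chr4:173527270-173659696) lies beside HAND2, a transcription factor of sympathetic neurons and of the heart, and this pair kept the steadiest ratio of those named. HAND2-AS1 had 133, 118, 117 and 115 counts and HAND2 had 608, 522, 546 and 570. The log2 ratios per kilobase were -4.75, -4.70, -4.78 and -4.86, or -4.77 ± 0.069 (SD, n = 4). The log2 fold change of SWT over control was -0.13 ± 0.14 (SE) for the antisense RNA and -0.031 ± 0.077 for HAND2, both within their errors.

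Where 2 antisense RNAs share a partner, they can differ from each other. PAXIP1-AS1 starts head to head with PAXIP1 and had 61, 45, 57 and 46 counts, a log2 ratio of -1.62 ± 0.23 (SD, n = 4). PAXIP1-AS2 overlaps its exons and had 44, 25, 27 and 45 counts, a ratio of -3.96 ± 0.35. For GAS6, the ligand of a family of receptor tyrosine kinases, the order of the arrangements was the same, with GAS6-AS2 head to head at -4.39 ± 0.31 and GAS6-AS1 overlapping at -5.67 ± 0.19. These 2 pairs of members were named after their values were seen.

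Most of the compared antisense RNAs overlap their partner. In 128 pairs (64.0%) exons of both genes cover the same bases on opposite strands, by a median of 326.5 bases or 10.2% of the antisense exons. In 39 pairs the genes lie head to head, without exon overlap and with starts at most 1000 bases apart, at a median of 104. In 30 the antisense RNA lies in an intron of the partner or interleaved with its exons, and 3 belong to none of these. Head-to-head members lay below their partner in 34 of 39 pairs, overlapping members in 91 of 128 and intronic or interleaved members in 14 of 30. The intronic or interleaved group had a median log2 ratio of 0.71, while the head-to-head and overlapping groups were at -2.21 and -2.29. Its partners were also lower, with a median of 167 counts against 2133 and 1759.5, while median antisense counts were alike at 133.5, 143 and 132.

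Start sites within 1000 bases of each other, with or without overlap, occurred in 80 pairs. Among them 70 antisense RNAs lay below the partner and 7 above, against 71 and 46 of the 120 pairs with starts farther apart. RefSeq lists promoters for 172 members on GRCh38.p14, of which 143 matched by symbol and 26 now bear a name ending in -DT, for divergent transcript. In 44 of these the RefSeq starts of antisense and sense gene lie within 300 bases of each other, and in 39 the sense start lies upstream, at a median of 121 bases. Such windows are rich in CpG: in the 300 bases from 250 before to 50 after the antisense start they held a median of 34 CpG dinucleotides, against 14 over all 27305 RefSeq promoters. Members whose starts lie over 1000 bases apart had 20.5. The motif TATAAA, searched on both strands, was in 2 of the 44 windows (4.55%), in 6 of the 80 with distant starts (7.50%) and in 12.0% of all promoters.

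A promoter region from each of 3 such pairs is shown on the antisense strand, chosen after values were seen. RAB30-AS1 and EIF3J-AS1 had small p-values in opposite directions, and TPT1-AS1 had the lowest ratio. Capitals mark the bases between the sense start and the antisense start, and lower case the first 50 bases of the antisense RNA. The regions are chr11:83071898-83072115 on the plus strand, chr15:44536874-44537146 on the minus strand and chr13:45341184-45341394 on the plus strand, from RefSeq on GRCh38.p14.
RAB30-AS1: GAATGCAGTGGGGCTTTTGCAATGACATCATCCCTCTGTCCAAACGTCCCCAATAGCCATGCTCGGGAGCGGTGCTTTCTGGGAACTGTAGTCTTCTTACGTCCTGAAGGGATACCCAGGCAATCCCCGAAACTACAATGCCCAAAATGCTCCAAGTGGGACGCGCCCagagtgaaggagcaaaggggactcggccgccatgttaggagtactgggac
EIF3J-AS1: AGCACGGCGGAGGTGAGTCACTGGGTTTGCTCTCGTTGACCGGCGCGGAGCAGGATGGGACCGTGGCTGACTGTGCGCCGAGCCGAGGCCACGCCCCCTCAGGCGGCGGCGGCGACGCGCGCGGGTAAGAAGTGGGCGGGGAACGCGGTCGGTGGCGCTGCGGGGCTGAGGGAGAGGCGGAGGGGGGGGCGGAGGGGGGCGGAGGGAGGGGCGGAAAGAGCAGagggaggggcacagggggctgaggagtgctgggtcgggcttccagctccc
TPT1-AS1: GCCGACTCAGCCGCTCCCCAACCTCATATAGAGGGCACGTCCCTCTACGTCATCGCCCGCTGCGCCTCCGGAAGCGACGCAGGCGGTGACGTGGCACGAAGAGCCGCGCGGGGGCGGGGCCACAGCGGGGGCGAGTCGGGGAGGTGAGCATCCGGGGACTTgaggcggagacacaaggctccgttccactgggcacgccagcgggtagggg
The starts are separated by 168, 223 and 161 bases, and the printed stretches hold 9, 30 and 25 CpG. With starts this close, the log2 ratios to the partner were 0.016 ± 0.21 (SD, n = 4) for RAB30-AS1, -5.61 ± 0.45 for EIF3J-AS1 and -11.28 ± 0.47 for TPT1-AS1. A start can differ between annotations, and in GENCODE 29 TPT1-AS1 and TPT1 overlap by 26 bases.

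No antisense RNA differed between SWT and control cells at an adjusted p under 0.05 in edgeR's quasi-likelihood test, where 0.0% of the 12400 genes tested were called in either direction. All 209 members entered the test, and the smallest adjusted p among them was 0.837 (edgeR, Benjamini-Hochberg over all genes). At an unadjusted p under 0.05, 2 members were higher and 7 lower, together 4.31% of members. The background was 2.81% of all genes higher and 2.96% lower, together 5.77%, so the members' combined share was not above it. The members' split by direction rests on 2 and 7 of 209 and was not tested. Without control 2, whose heart muscle reads stood apart, 1 member was called lower, ZMIZ1-AS1, and none higher, where 0.835% of all genes tested were called higher and 0.764% lower. Among the 172 distinct partners tested none was called, and 14 had an unadjusted p under 0.05, 9 of them higher.

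By value, 94 members were higher in SWT and 115 lower, with a median log2 fold change of -0.030. Over all genes tested the counts were 6161 and 6239 and the median was -0.00079. Both SWT libraries lay above both controls for 22 members (10.5%) and below both for 52 (24.9%), while 17.3% of all genes tested lay above and 18.0% below. With DESeq2 size factors the members' counts were again 22 and 52, and with total counts 21 and 53. Among the tested partners, 37 lay above and 30 below. The members' median differences between single libraries were -0.014 for SWT 1 against control 1, -0.027 for SWT 1 against control 2, -0.054 for SWT 2 against control 1 and -0.062 for SWT 2 against control 2. Between replicates they were 0.0090 for the controls and -0.029 for SWT, so the difference between the SWT replicates lay within the range of the 4 differences between groups. The members' median total was 136 counts, and the part of depth in these shares was not tested.

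**Figure D2:**
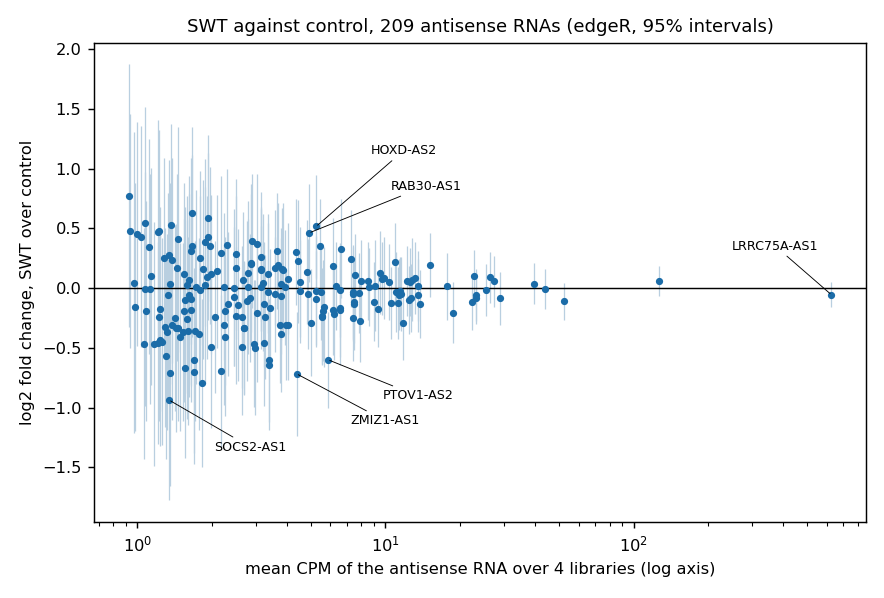
Log2 fold change of SWT over control for each of the 209 antisense RNAs, with its 95% interval from edgeR, against its mean CPM on a log axis. Intervals widen to the left, the largest change in size is that of SOCS2-AS1 at -0.94, and no member passed the adjusted threshold.

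How small a change could be seen depended on depth. The median SE of the log2 fold change was 0.20 for the 129 members with 100 counts or more and 0.38 for the 80 with fewer. The 95% interval lay within a 2-fold change in either direction for 150 members, 123 of them with 100 counts or more. It lay within a log2 change of 0.5 for 53. For abundant members the interval was narrow, from -0.16 to 0.051 for LRRC75A-AS1, from -0.070 to 0.18 for FGD5-AS1 and from -0.26 to 0.044 for OIP5-AS1. For members under 100 counts it mostly reached beyond a 2-fold change, with 27 of 80 within it.

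Among the members with higher values in SWT, HOXD-AS2 (chr2:176121611-176137098) had the smallest p. It had 54 and 39 counts in the controls and 70 and 64 in SWT, or 4.30 ± 0.50 and 6.22 ± 1.03 CPM (SD, n = 2). The groups did not overlap, and the log2 fold change was 0.52 ± 0.20 (SE), at an adjusted p of 0.837 by edgeR. On the opposite strand it overlaps HOX genes, which set position along the body axis. HOXD9 had 235, 149, 172 and 214 counts, HOXD8 had 256, 223, 209 and 252, and HOXD3 had 39, 24, 35 and 35. Their log2 fold changes were -0.0021 ± 0.14, -0.072 ± 0.11 and 0.14 ± 0.26 (SE), each within its error. The other HOX members showed no such separation, as HOXA-AS2 had 50, 29, 51 and 37 counts and HOXB-AS1 16, 21, 11 and 27.

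RAB30-AS1, whose promoter region is printed above, had 48, 41, 58 and 66 counts, or 4.14 and 4.15 CPM in the controls and 5.76 and 5.67 CPM in SWT. Its log2 fold change was 0.46 ± 0.20 (SE), at an adjusted p of 0.837 by edgeR. RAB30, a small GTPase of the Golgi, had 259, 216, 228 and 328 counts and a log2 fold change of 0.21 ± 0.12. Both genes of this pair were higher by value in both SWT libraries, though RAB30 was at 0.036 without SWT 2 and 0.35 without SWT 1. NUTM2B-AS1 had 53, 50, 62 and 71 counts with its partner at 0, and a log2 fold change of 0.35 ± 0.19. SLC16A1-AS1 had 14, 14, 20 and 24 counts, with 0.63 ± 0.34, while SLC16A1 was at 0.026 ± 0.058.

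Members with lower values and the smallest p had partners close to 0 change. PTOV1-AS2 (chr19:49856970-49859289) had 84 and 68 counts in the controls and 53 and 48 in SWT. Its CPM was 7.06 ± 0.25 in control and 4.69 ± 0.81 in SWT (SD, n = 2), a log2 fold change of -0.60 ± 0.19 (SE), at an adjusted p of 0.837 by edgeR. PTOV1, a protein overexpressed in prostate tumours, was at 73.4, 73.2, 73.9 and 74.7 CPM. ZMIZ1-AS1 (chr10:78943328-79067895) had 74, 45, 26 and 47 counts and a log2 fold change of -0.72 ± 0.25 (SE). Its adjusted p of 0.837 became 0.0308 without control 2, the change then being -0.92 with the lone control assumed to vary like the other libraries (edgeR). The change was -0.44 without control 1, -0.45 without SWT 1 and -1.09 without SWT 2, with edgeR adjusted p-values of 0.851, 0.999 and 0.237. ZMIZ1, a transcriptional coactivator, was at -0.036 ± 0.082.

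EIF3J-AS1, the other divergent transcript printed above, had 39, 49, 26 and 31 counts, or 4.16 ± 1.13 CPM in control and 2.62 ± 0.057 in SWT (SD, n = 2). The log2 fold change was -0.65 ± 0.26 (SE), beside 0.080 ± 0.062 for EIF3J, a subunit of a translation initiation factor. It was -0.35 without control 2 and -0.91 without control 1. PPP3CB-AS1 (chr10:73495525-73520070) had 53, 36, 25 and 34 counts. Its log2 fold change was -0.60 ± 0.24, beside 0.092 ± 0.075 for PPP3CB, a catalytic subunit of calcineurin. In these 4 pairs the antisense-to-sense log2 ratio differed between SWT and control by -0.61 for PTOV1-AS2, -0.70 for ZMIZ1-AS1, -0.71 for EIF3J-AS1 and -0.68 for PPP3CB-AS1. They are the largest such differences among pairs with 100 counts in both genes and groups that do not overlap, and they are given without a test, since 2 libraries against 2 cannot reach the threshold in a permutation test. SOCS2-AS1, TAPT1-AS1 and POT1-AS1, named after their values were seen, make up the rest of the 7 lower members. Their log2 fold changes were -0.94 ± 0.40, -0.70 ± 0.30 and -0.79 ± 0.33 (SE), from 58, 94 and 79 counts in all.

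**Figure D3:**
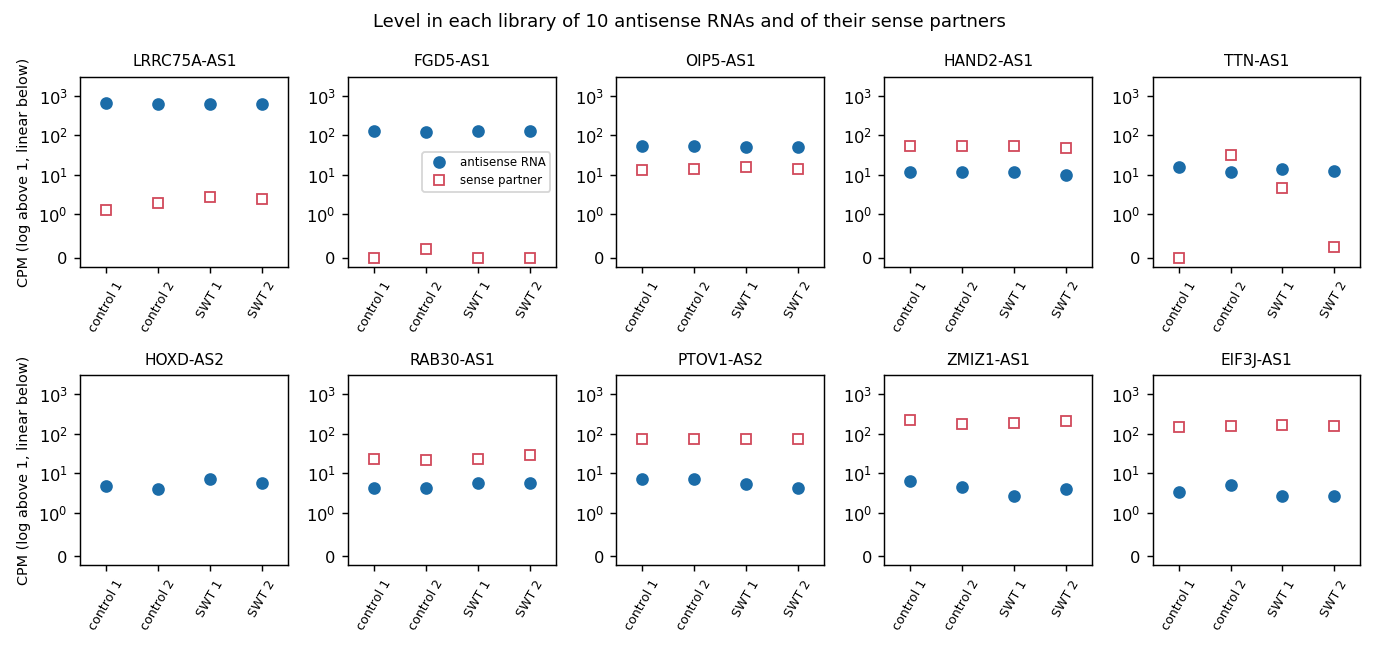
Level in each of the 4 libraries, in CPM on an axis that is logarithmic above 1 and linear below, of 10 antisense RNAs (filled) and their sense partners (open), HOXD-AS2 having no partner. Every antisense RNA shown has counts in all 4 libraries, while TTN, the partner of TTN-AS1, runs from 0 to 31.6 CPM. The axis makes changes such as that of ZMIZ1-AS1, a log2 fold change of -0.72, look small.

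Levels and changes of antisense RNA and partner were weakly related across pairs. Among the 97 pairs with at least 100 counts in both genes, the Spearman correlation of the levels was 0.0048 and that of the log2 differences between SWT and control 0.016 (Pearson 0.051). For the differences it was -0.18 over the 48 pairs with starts within 1000 bases and 0.25 over the 49 others, with the same sign in 39.6% and 65.3%. Differences between replicates (2 minus 1) gave 0.087 in control and 0.11 in SWT over the 97 pairs. They gave -0.058 and -0.053 over the 48 pairs, and 0.18 and 0.20 over the 49, so the latter value was similar without treatment. The points share the same 4 libraries, and genes are not independent replicates. For 823 divergent protein-coding pairs with the same minimum of 100 counts in both genes, the Spearman values were 0.031 and 0.18. Between replicates, that of the differences was 0.15 in control and 0.052 in SWT. The antisense-to-sense ratio was higher in both SWT libraries than in both controls for 10 of the 97 pairs (10.3%) and lower for 31 (32.0%). In the divergent coding pairs the ratio of minus-strand to plus-strand gene was higher in 17.1% and lower in 14.6%, though these have more counts, with medians of 1953 and 1802 against 240 for the antisense RNAs.

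The lower side held more pairs whatever the distance between starts. Of the 48 pairs whose starts lie within 1000 bases, 18 (37.5%) had a lower ratio in both SWT libraries and 5 a higher one, and of the 49 others 13 (26.5%) and 5. In CPM both SWT libraries lay below both controls for 21 of the 80 antisense RNAs with close starts and 30 of the 120 others. They lay above both for 8 and 13, while 17.3% of all genes tested lay above and 18.0% below. The ratio contains the antisense count, so it is not a separate result. Over all 80 pairs with close starts the median log2 fold change was -0.041, with 31 above 0, and that of their partners 0.026. For the 120 others it was -0.025, with 58 above 0, beside -0.013 for partners. Among the 39 head-to-head pairs 13 antisense RNAs were above 0, with a median of -0.099. Across genes, the Spearman correlation of fold change with GC content was -0.28 for the other tested genes and -0.070 for members. With the GC and length trend removed, the median of the 205 members with both values went from -0.029 to -0.014. For close starts it then stood at -0.056 and for distant starts at -0.0011.

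**Figure D4:**
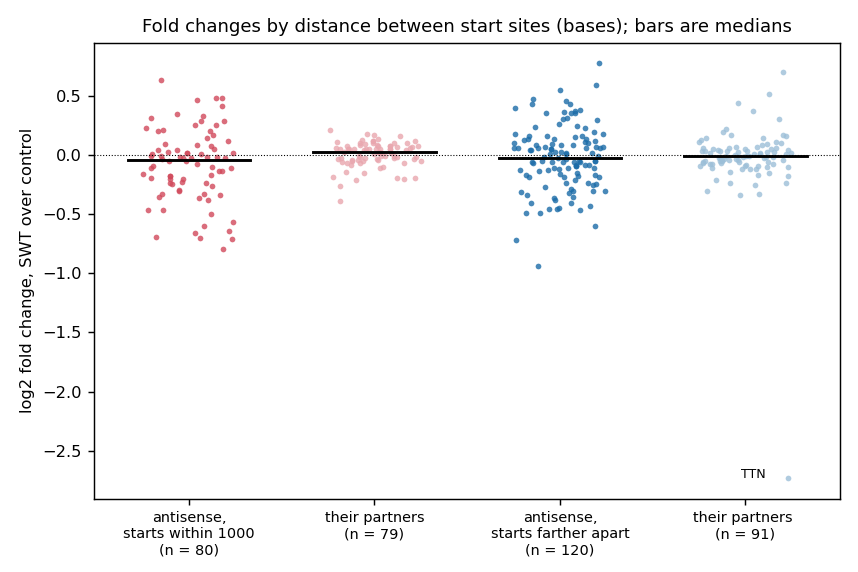
Log2 fold change of SWT over control for antisense RNAs and for their tested partners, split by whether the start sites lie within 1000 bases, with the median of each group as a bar. Medians lie between -0.041 and 0.026. With close starts, antisense RNAs run from -0.79 to 0.63 and partners from -0.39 to 0.21. With distant starts, antisense RNAs run from -0.94 to 0.77 and partners from -2.73, the point of TTN, to 0.70.

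The TTN pair, named after its values were seen, shows the library that stood apart. TTN, the giant protein of muscle sarcomeres, had 0 and 312 counts in the controls and 46 and 3 in SWT, so its groups overlapped. MYH6, a heart myosin, followed with 0, 952, 27 and 2. MYH7, another heart myosin, did not, with 3, 35, 55 and 1 counts and its highest value in SWT 1. TTN-AS1 (chr2:178521183-178779963), with 55.1% of its exon bases opposite TTN exons, had 180, 118, 141 and 146 counts. In CPM the antisense RNA was lowest in the library where TTN was highest, with a log2 fold change of -0.061 ± 0.15 (SE). CKMT2, a creatine kinase of muscle mitochondria, had 1, 27, 2 and 0 counts beside 61, 55, 50 and 60 for CKMT2-AS1. In CPM, CKMT2-AS1 was at 5.26, 5.56, 4.96 and 5.15, highest in control 2 by a small margin, whereas TTN-AS1 was lowest there.

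PCF11-AS1 (chr11:83185521-83187036) lies wholly opposite exons of PCF11, a transcription termination factor, and was named after its values were seen. It had 15, 14, 18 and 15 counts, beside 744, 657, 727 and 837 for PCF11. Its level of 1.45 ± 0.23 CPM (SD, n = 4) was thus low and even over the libraries, at a log2 ratio of -2.82 ± 0.19 per kilobase.

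The machinery that trims and degrades antisense RNA was present and did not pass the test. Of 35 listed genes of the nuclear exosome, its adaptors, termination, decay and double-stranded RNA processing, all were tested, at 7.69 to 697 CPM. None was called and none had an unadjusted p under 0.05, with 17 above 0, 18 below and a median log2 fold change of -0.00070. The 3 smallest p-values belonged to PCF11 at 0.14 ± 0.068 (SE), to SRRT, an adaptor of the cap-binding complex, at -0.11 ± 0.054, and to DICER1, which cuts double-stranded RNA, at 0.13 ± 0.067. The smallest adjusted p in the list was 0.843 (edgeR).

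The authors' second deposited table, of log2 values for 17151 genes, lists none of the 1125 antisense symbols. Of 587 genes with counts that it lacks, 585 end in -AS1, -AS2 or -AS3, and the others are SEPT7 and MMP24-AS1-EDEM2. All 11 counted symbols ending in -AS alone are in it, as are the partners of 198 members. The antisense RNAs described here can therefore be examined only in the counts.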

How the data were processed

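Poly(A) RNA of 2 untreated and 2 shock wave treated SH-SY5Y libraries was sequenced, and the sample labels gave the groups and replicate numbers. The authors deposited raw counts per gene symbol, and Trimmomatic 0.36, FastQC 0.11.5, STAR 2.5.3a, HTSeq, DESeq2 and build hg38 are named without a role in the submitters' processing notes. The annotation behind the symbols, and whether counting used strand, are not given in the sources used here. A further table deposited by the authors holds log2 values, and it was tested as it stands with limma. It holds no antisense RNA.

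The counts went into edgeR 4.0.16 under R 4.3.3 (TMM, quasi-likelihood F-test, Benjamini-Hochberg over the 12400 genes tested, threshold 0.05). The filter was filterByExpr with the group, plus every antisense RNA of at least 40 counts, and filterByExpr alone kept 208 of the 209. A standard error is the size of the fitted log2 change divided by the root of its F statistic, and its interval takes a t quantile, which makes both approximate. CPM values use TMM-scaled library sizes. The script was tested on simulated data. Levels of different genes were compared per kilobase of the union of annotated exons, as log2 ratios with a pseudocount of 0.5 counts. Exact intervals and the limit of a count of 0 (3 counts) cover counting error only, at 95%.

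Gene models came from GENCODE release 29 (GRCh38, another name of hg38). Of the members, 190 matched by symbol and 15 through a RefSeq synonym. Promoters and the microRNA were read from RefSeq tables and the OIP5-AS1 site from GENCODE transcripts. Where RefSeq lists several starts, the first listed was used.

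The members and gene lists were chosen with earlier results of these data known. Named by rule were the 10 members with the highest totals, the 4 with the smallest p in each direction, the 4 highest and 4 lowest ratios to the partner, the 4 largest changes of that ratio among pairs with 100 counts in both genes whose groups do not overlap, HAND2-AS1, and the 3 nearest the threshold on each side. Alternatives were DESeq2 1.42.0 and its size factors, limma-voom (limma 3.58.1), other filters, lengths, pseudocounts and thresholds, a replicate block, and leaving out each library. Plots were drawn with matplotlib 3.10.9.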

Additional observations from a re-analysis of the deposited data

How the results depend on the processing

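Direction and call held for 486 of 516 alternative values of the 26 named antisense RNAs and 21 partners, while 29 changed sign and 1, ZMIZ1-AS1 without control 2, passed the threshold. Refits of all 4 libraries share the same counts, and gave 325 values the same and 3 reversed. Leaving out a library gave 161 the same and 26 reversed. TPT1-AS1 turned to 0.027 with DESeq2, 0.0050 without a low-count filter and 0.030 with the replicate block. Leaving out 1 library at a time, log2 fold changes ran from -0.057 to 0.041 for MAGI2-AS3, -0.0068 to 0.081 for LOXL1-AS1, -0.24 to 0.047 for AGAP2-AS1, -0.043 to 0.16 for PSMA3-AS1, -0.085 to 0.057 for WAC-AS1, -0.27 to 0.23 for DLGAP1-AS1, -0.63 to 0.48 for TPT1-AS1, -0.89 to 0.42 for PCBP1-AS1 and -0.62 to 0.41 for NDUFB2-AS1. For partners they ran from -0.10 to 0.045 for HAND2, -0.092 to 0.12 for LOXL1, -0.15 to 0.075 for NDUFB2, -0.20 to 0.12 for PSMA3, -0.28 to 0.62 for ST20, -0.028 to 0.041 for WAC and -0.18 to 0.14 for ZMIZ1. None of these passed the threshold, and the cause was not tested.

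Leaving out 1 library at a time, with a lone library assumed to vary like the others, called 0 to 1 antisense RNAs lower, 0 to 3 partners higher and 0 to 2 lower, and 2 to 106 of all genes higher and 15 to 97 lower. Of all genes, most calls came without control 2. TTN was called in each of these 4 fits, lower in 3 and higher without control 2. Without a low-count filter 2 partners were lower, CKMT2 and TTN, with 20 of all genes higher and 43 lower. The replicate block called 0 antisense RNAs and 1 gene of all, lower. Same-numbered libraries did not deviate together (correlation -0.26 over 12400 genes). With 2 libraries per group, that correlation cannot settle whether the numbers pair the samples. Crossed pairing, added after seeing the data, called 0 antisense RNAs, 1 partner higher and 1 lower, and 55 of all genes higher and 42 lower.

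The members' median log2 fold change, -0.030, was -0.052 with limma-voom, -0.063 to -0.021 leaving out a library, and -0.014 with the GC and length trend removed, a setting added after seeing the data. The median log2 ratio, -2.08, was -2.28 with the longest transcript, -3.16 with no length correction, -1.43 at a threshold of 100 counts and -2.50 at 20. At 100 counts 79 of 123 pairs lay below the partner. With starts within 5000 bases, 1 pair in place of 3 was in no group of arrangement. For the 80 members under 100 counts the depth limits what could be seen, with a median SE of 0.38.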
